A study of Mus musculus with 10 samples.

Results

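Immunoglobulin genes were followed in RNA of sorted regulatory T cells (Tregs), a kind of CD4 T cell that expresses Foxp3 and does not make antibody. Every row of the raw count table whose symbol begins with a heavy (Igh), kappa (Igk) or lambda (Igl) immunoglobulin name was taken, and Ighmbp2, which codes for a DNA-binding protein, was left out. This gave 260 of 27179 rows. Of these, 120 were heavy variable segments, 10 heavy diversity segments, 4 heavy joining segments and 8 heavy constant genes. The light chains added 103 variable segments, 5 joining segments and 1 constant gene for kappa, and 3 of each kind for lambda.

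Tregs had been sorted as CD4+ TCRb+ YFP+ cells from C57BL/6 mice. Gut means colon plus small intestine. The Maf-KO mice were Maffl/fl x Foxp3Cre-YFP, so that floxed Maf, which encodes the transcription factor c-Maf, is deleted where the Foxp3 locus drives Cre. The WT mice carried Foxp3Cre-YFP too and are labelled with that allele alone. There were 2 Maf-KO gut libraries (replicates 2 and 3), 2 WT gut libraries (replicates 1 and 3), 3 Maf-KO spleen libraries and 3 WT spleen libraries. The series asks what c-Maf in Tregs does for Th17 cells and for IgA in the intestine. The labels do not say whether replicates are separate animals, so p-values measure the spread between these libraries. In a sorted pool, fewer cells of a type and less RNA per cell cannot be told apart.

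An antibody is built from a heavy and a light chain. In B cells a variable, a diversity (heavy chain only) and a joining segment are cut together in the DNA, and the joined exon is spliced to a constant gene, which sets the isotype. Resting B cells carry IgM and IgD on their surface, while plasma cells secrete antibody in bulk, and in the gut wall most plasma cells make IgA. T cells are known to transcribe unrearranged parts of the heavy locus at a low level, without making a heavy chain protein.

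Total counts per library were 8567035 to 13983965, and levels are given as CPM, the usual scaling of counts to a common library total, here with TMM-normalised totals. At these depths 3 counts correspond to 0.231 to 0.377 CPM. Maf, the deleted gene, had 0.609 and 0.239 CPM in Maf-KO gut and 107.9 and 108.6 CPM in WT gut. Its levels were 0.217, 1.10 and 0.195 CPM in Maf-KO spleen, against 29.9, 24.0 and 45.9 CPM in WT spleen. The T cell gene Cd3e lay between 706 and 1469 CPM in all 10 libraries, and Foxp3 between 114 and 211 CPM. A gene was called changed at an adjusted p under 0.05 in edgeR's quasi-likelihood test, adjusted by Benjamini-Hochberg over the 13214 genes tested.

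Immunoglobulin rows held 2.42% and 0.818% of all counts in Maf-KO gut and 3.29% and 1.54% in WT gut. In spleen they held 0.3001%, 0.285% and 0.195% in Maf-KO libraries and 0.275%, 0.182% and 0.351% in WT libraries. Each gut library was thus above each spleen library, the genotypes overlapped in both tissues, and replicates within gut lay far apart. The summed level was 18145 ± 12752 CPM in Maf-KO gut and 26674 ± 13234 CPM in WT gut (SD, n = 2 each). In spleen it was 2435 ± 529 CPM in Maf-KO and 2485 ± 792 CPM in WT (SD, n = 3 each). Between 178 and 235 of the 260 members had a count in a given library, and 7 had none in any.

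The constant genes separated the tissues in opposite directions (plot of constant genes by library). Igha, the IgA constant gene (chr12:113256204-113260236, GRCm38), had 9320 and 2994 CPM in Maf-KO gut and 119, 110.0 and 94.4 CPM in Maf-KO spleen. In WT mice it had 12540 and 5994 CPM in gut, against 43.9, 20.6 and 31.5 CPM in spleen. It was the most abundant of all genes by count in Maf-KO gut replicate 2 and WT gut replicate 1, and ranked 20 and 6 in the other gut libraries. The log2 fold change of gut over spleen was 5.84 (SE 0.52, adjusted p = 4.61e-05) in Maf-KO and 8.18 (SE 0.58, adjusted p = 9.44e-06) in WT.

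**Figure D1:**
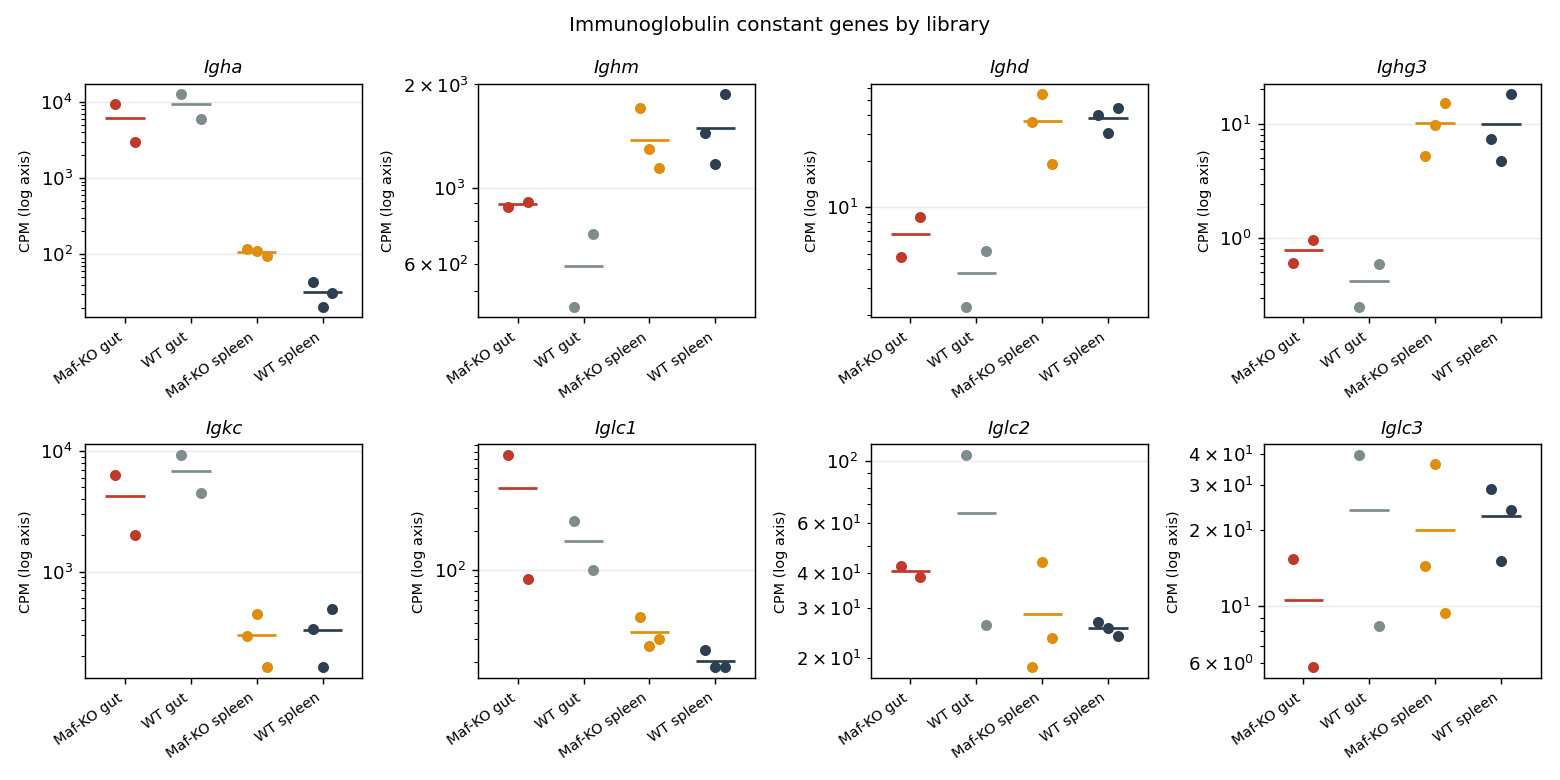
CPM on log axes of 8 constant genes, with 1 point per library and a line at the group mean (2 libraries per gut group, 3 per spleen group). Igha, Igkc and Iglc1 lie higher in every gut library than in every spleen library, while Ighm, Ighd and Ighg3 lie lower in gut.

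Ighm, the IgM constant gene (chr12:113418826-113422730), went the other way. It had 881 and 907 CPM in Maf-KO gut and 1704, 1297 and 1144 CPM in Maf-KO spleen, while in WT it had 450 and 732 CPM in gut and 1441, 1169 and 1873 CPM in spleen. Gut and spleen did not overlap in either genotype. The Maf-KO log2 fold of -0.63 (SE 0.26, adjusted p = 0.0964) was not called, and the WT fold of -1.34 (SE 0.26, adjusted p = 0.00448) was. With the number that gut and spleen libraries share in their titles as a block in limma-voom, the Maf-KO fold was -0.53 with adjusted p = 0.0294. It also passed with DESeq2, without scaling and in a fit to the groups compared alone. Ighd, the IgD gene, which is spliced from the same transcript as Ighm in resting B cells, had 4.78 and 8.62 CPM in Maf-KO gut and 36.1, 54.4 and 19.0 CPM in Maf-KO spleen. In WT it had 2.26 and 5.20 CPM in gut against 39.8, 30.3 and 44.2 CPM in spleen. The folds of -2.44 (SE 0.48, adjusted p = 0.00412) in Maf-KO and -3.34 (SE 0.52, adjusted p = 0.00125) in WT were both called.

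Of the IgG genes, only Ighg3 was called in a tissue comparison. It had 0.609 and 0.958 CPM in Maf-KO gut and 5.20, 9.69 and 15.3 CPM in Maf-KO spleen, for a log2 fold of -3.66 (SE 0.73, adjusted p = 0.00466). WT gut had 0.251 and 0.591 CPM and WT spleen 7.29, 4.70 and 18.1 CPM, for a fold of -4.52 (SE 0.83, adjusted p = 0.00312). All 4 gut values lay below all 6 spleen values. Ighg2b had 21.2 and 13.96 CPM in Maf-KO gut against 36.0, 53.6 and 33.5 CPM in Maf-KO spleen, a fold of -1.22 (SE 0.71, adjusted p = 0.23), which the title-number block put at -1.27 with adjusted p = 0.0464. Without WT spleen replicate 3 in the fit, that adjusted p was 0.00799. In WT it had 16.6 and 14.4 CPM in gut beside 8.18, 7.01 and 47.6 CPM in spleen, where replicate 3 stood apart. The WT fold of -0.43 (SE 0.71, adjusted p = 0.694) was 1.03 with adjusted p = 0.0313 without that replicate. Ighg2c ranged from 0.319 to 10.4 CPM in gut and from 0.693 to 54.2 CPM in spleen, Ighg1 from 0 to 0.628 CPM in gut and from 0 to 20.7 CPM in spleen. Ighe, the IgE gene, had 5 counts in all 10 libraries together and failed the filter on low counts.

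As shares of the heavy constant counts, Igha took 76.3% to 91.0% in Maf-KO gut, 88.8% to 96.4% in WT gut, 6.07% to 7.15% in Maf-KO spleen and 1.53% to 2.79% in WT spleen. Ighm took 8.60% to 23.1% in Maf-KO gut, 3.45% to 10.8% in WT gut, 84.3% to 87.1% in Maf-KO spleen and 91.2% to 94.9% in WT spleen. The leading isotype therefore differed between tissues in every library. Per kilobase of annotated exon, Igha had 3493 and 1122 CPM in Maf-KO gut and 4700.1 and 2246 CPM in WT gut. On the same scale Ighm had 467 and 481 CPM in Maf-KO gut and 238 and 388 CPM in WT gut, so Igha exceeded Ighm in each gut library.

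The light chains followed Igha rather than Ighm. Igkc, the single kappa constant gene (chr6:70726435-70726754), had 6391 and 2022 CPM in Maf-KO gut and 290.2, 446 and 161 CPM in Maf-KO spleen. In WT it had 9293 and 4486 CPM in gut against 333, 163 and 494 CPM in spleen. Every gut value was above every spleen value, with log2 folds of 3.81 (SE 0.62, adjusted p = 0.00153) in Maf-KO and 4.38 (SE 0.63, adjusted p = 0.000786) in WT.

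Among the 3 lambda constant genes, Iglc1 (chr16:19061752-19062071) was the one called. It had 755 and 86.6 CPM in Maf-KO gut and 44.4, 26.9 and 30.005 CPM in Maf-KO spleen, and 237 and 99.9 CPM in WT gut against 24.97, 18.4 and 18.3 CPM in WT spleen. Its folds were 3.64 (SE 0.70, adjusted p = 0.00391) in Maf-KO and 3.04 (SE 0.70, adjusted p = 0.00972) in WT. Without WT gut replicate 1 the WT fold was 2.28 with adjusted p = 0.0881. Iglc2 ran from 26.3 to 104.6 CPM in gut and from 18.5 to 43.8 CPM in spleen, and Iglc3 from 5.75 to 39.6 CPM in gut and from 9.45 to 36.4 CPM in spleen, and neither passed the edgeR test in either genotype. The Iglc2 fold in WT was 1.36 (adjusted p = 0.0595). It passed with DESeq2 (adjusted p = 0.0117), without the filter on low counts (adjusted p = 0.0165), without Maf-KO spleen replicate 2 (adjusted p = 0.046) and without WT gut replicate 3 (2.04, adjusted p = 0.00383), and was 0.041 without WT gut replicate 1 (adjusted p = 0.955). Lambda made up 6.09% to 11.3% of light constant counts in Maf-KO gut, 2.91% to 3.94% in WT gut, 19.4% to 28.1% in Maf-KO spleen and 11.8% to 26.6% in WT spleen. The lambda share was lower in each gut library than in each spleen library.

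A constant gene can be transcribed without a rearranged variable segment, so the variable counts were set against the constant counts of the same chain (plot of variable per constant counts). For the heavy chain there were 38.3 and 30.6 variable counts per 100 constant counts in Maf-KO gut and 40.7 and 33.6 in WT gut. Spleen libraries had 6.55, 11.51 and 6.67 in Maf-KO and 8.03, 5.72 and 10.7 in WT, with no overlap between tissues. For kappa the ratio lay between 70.8 and 78.3 in all 10 libraries. Lambda gave 91.8 ± 1.13 in Maf-KO gut and 104.5 ± 14.6 in WT gut (SD, n = 2 each), against 52.3 ± 7.07 in Maf-KO spleen and 40.4 ± 4.78 in WT spleen (SD, n = 3 each). Per 100 light constant counts, heavy constant counts numbered 142 to 182 in Maf-KO gut and 134 to 146 in WT gut. They were higher in spleen, at 278 to 592 in Maf-KO and 367 to 553 in WT. These counts were not divided by exon length, which is 2668 bases for Igha, 1886 for Ighm and 532 for Igkc. A ratio above 100 is therefore not by itself an excess of heavy over light transcripts.

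**Figure D2:**
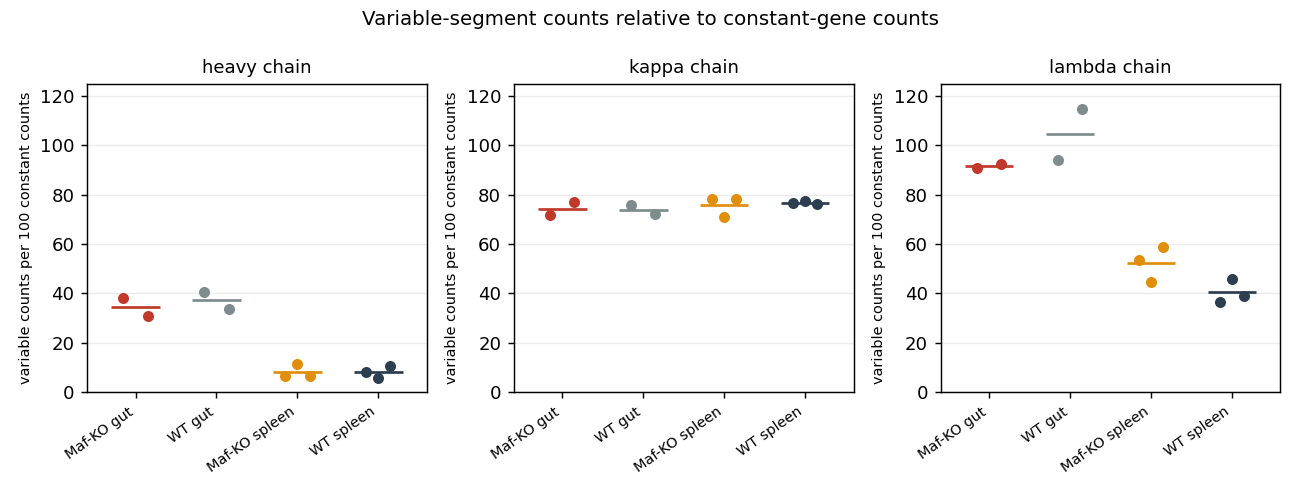
Variable-segment counts per 100 constant-gene counts of the same chain, with 1 point per library and a line at the group mean. The heavy chain ratio is 30.6 or more in gut and 11.51 or less in spleen, and the kappa ratio stays between 70.8 and 78.3 in all groups.

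The joining segments are short exon pieces at the 3' end of each variable exon, and the heavy chain ones are shown because Ighj1 and the other 3 had different folds although all 4 carry the same motif. That motif is TGGGGNNNNGGN (capitals), the codons of the Trp-Gly-X-Gly turn of a joined chain. Sequences are the GENCODE M21 transcripts on GRCm38, 5′ to 3′ on the coding strand.
Ighj1: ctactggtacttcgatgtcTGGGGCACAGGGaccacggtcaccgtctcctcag
Ighj2: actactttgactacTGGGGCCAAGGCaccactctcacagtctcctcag
Ighj3: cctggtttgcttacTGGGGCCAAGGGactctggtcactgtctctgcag
Ighj4: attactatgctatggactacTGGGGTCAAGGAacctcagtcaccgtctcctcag
Searched on both strands, that motif was in 4 of 4 heavy joining, 0 of 5 kappa joining and 0 of 3 lambda joining segments, and in 4 of 120 heavy, 6 of 102 kappa and 0 of 3 lambda variable segments.

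Ighj1 (chr12:113429781-113429833, minus strand), the joining segment farthest from the constant genes, had the lowest gut-over-spleen fold of the 4 in both genotypes, a difference that was not tested itself. It had 33.7 and 18.8 CPM in Maf-KO gut and 27.2, 9.47 and 7.01 CPM in Maf-KO spleen, which overlap, and 36.9 and 27.0 CPM in WT gut against 9.69, 8.93 and 12.2 CPM in WT spleen, which do not. Ighj4 had 68.1 and 31.2 CPM in Maf-KO gut against 5.64, 5.62 and 4.19 CPM in Maf-KO spleen, and 74.2 and 39.3 CPM in WT gut against 5.60, 5.47 and 4.55 CPM in WT spleen. Its folds were 3.27 (SE 0.36, adjusted p = 0.000157) in Maf-KO and 3.44 (SE 0.36, adjusted p = 0.000102) in WT. Those of Ighj1 were 0.85 (SE 0.49, adjusted p = 0.224) in Maf-KO and 1.64 (SE 0.49, adjusted p = 0.0317) in WT. The WT call of Ighj1 was lost without either WT gut replicate or any WT spleen replicate (adjusted p 0.0505 to 0.166), and the title-number block gave 1.24 with adjusted p = 0.0111 in Maf-KO.

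Ighj1 thus took 12.9% to 20.4% of heavy joining counts in Maf-KO gut and 10.7% to 17.3% in WT gut, but 39.6% to 63.7% in Maf-KO spleen and 38.8% to 51.6% in WT spleen. Ighj2 took 33.7% to 43.1% in Maf-KO gut and 42.3% to 44.9% in WT gut, against 12.3% to 24.9% in Maf-KO spleen and 12% to 25.3% in WT spleen. Neither range overlapped between tissues.

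One diversity segment held most of the diversity counts. Ighd4-1 (chr12:113430528-113430538, minus strand), the diversity segment nearest to the joining segments, ends 695 bases upstream of Ighj1 and held 289 of the 318 diversity counts. Its whole sequence is shown for its shortness.
Ighd4-1: ctaactgggac
It had 9 and 13 counts in Maf-KO gut and 75, 26 and 23 in Maf-KO spleen, and 0 and 6 counts in WT gut against 41, 39 and 57 in WT spleen. All gut libraries were below all spleen libraries. The fold was -2.26 (SE 0.77, adjusted p = 0.0519) in Maf-KO, called with the title-number block (-1.58, adjusted p = 0.0398), and -3.42 (SE 0.92, adjusted p = 0.0194) in WT, not called without WT gut replicate 1 (adjusted p = 0.101). None of the other 9 diversity segments passed the filter on low counts, and 3 had no count.

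Most light chain joining segments rose in gut, as Igkc and Iglc1 did. The kappa ones and the leading lambda one are shown for their shared Phe-Gly-X-Gly motif TTCGGNNNNGGN (capitals), found in 4 of 5 kappa and 3 of 3 lambda joining segments, in 0 of 4 heavy joining segments and in 0 of 120 heavy, 0 of 102 kappa and 0 of 3 lambda variable segments on either strand.
Igkj1: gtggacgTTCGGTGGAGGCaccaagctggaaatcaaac
Igkj2: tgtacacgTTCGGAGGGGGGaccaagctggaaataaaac
Igkj3: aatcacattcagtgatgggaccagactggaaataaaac
Igkj4: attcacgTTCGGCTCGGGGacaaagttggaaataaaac
Igkj5: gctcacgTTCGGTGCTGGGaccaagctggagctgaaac
Iglj1: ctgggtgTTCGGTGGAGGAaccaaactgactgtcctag
Igkj3 (chr6:70723223-70723260), the one without the motif, had 22 counts over all libraries, against 1270 to 2267 for each of the other 4 kappa segments. It took 0 to 3.33% of the kappa joining counts of a library. The other 4 were called higher in gut in both genotypes. Of the lambda joining segments, Iglj1, with 555 counts in all, was called higher in gut in both genotypes, and Iglj2 and Iglj3 were not.

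Variable segments made up most of the tested members and likewise most of the calls (plot of member folds). In Maf-KO, 118 of the 185 members that passed the filter were called higher in gut and 2 lower, where 14.4% of all genes tested were called higher and 14.1% lower. In WT, 130 were called higher and 4 lower, where 14.7% of all genes were higher and 13.3% lower. Gut and spleen did not overlap for 131 members higher and 7 lower in Maf-KO, where 27.5% and 28.9% of all genes did so, and for 142 higher and 4 lower in WT, where 25.9% and 27.5% did so. By class, heavy variable segments gave 57 of 82 in Maf-KO and 60 of 82 in WT, kappa variable segments 49 of 77 and 56 of 77, and no variable segment was called lower. The median log2 fold over the tested members was 3.64 in Maf-KO and 3.99 in WT, where all genes tested had medians of -0.020 in Maf-KO and -0.03 in WT. Members that passed the filter through their gut counts alone were bound to be higher in gut, so these shares describe the members tested and not all 260. Without Maf-KO gut replicate 2, 66 members were called in Maf-KO, and without WT gut replicate 1, 81 in WT. Limma-voom called 70 in Maf-KO.

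**Figure D3:**
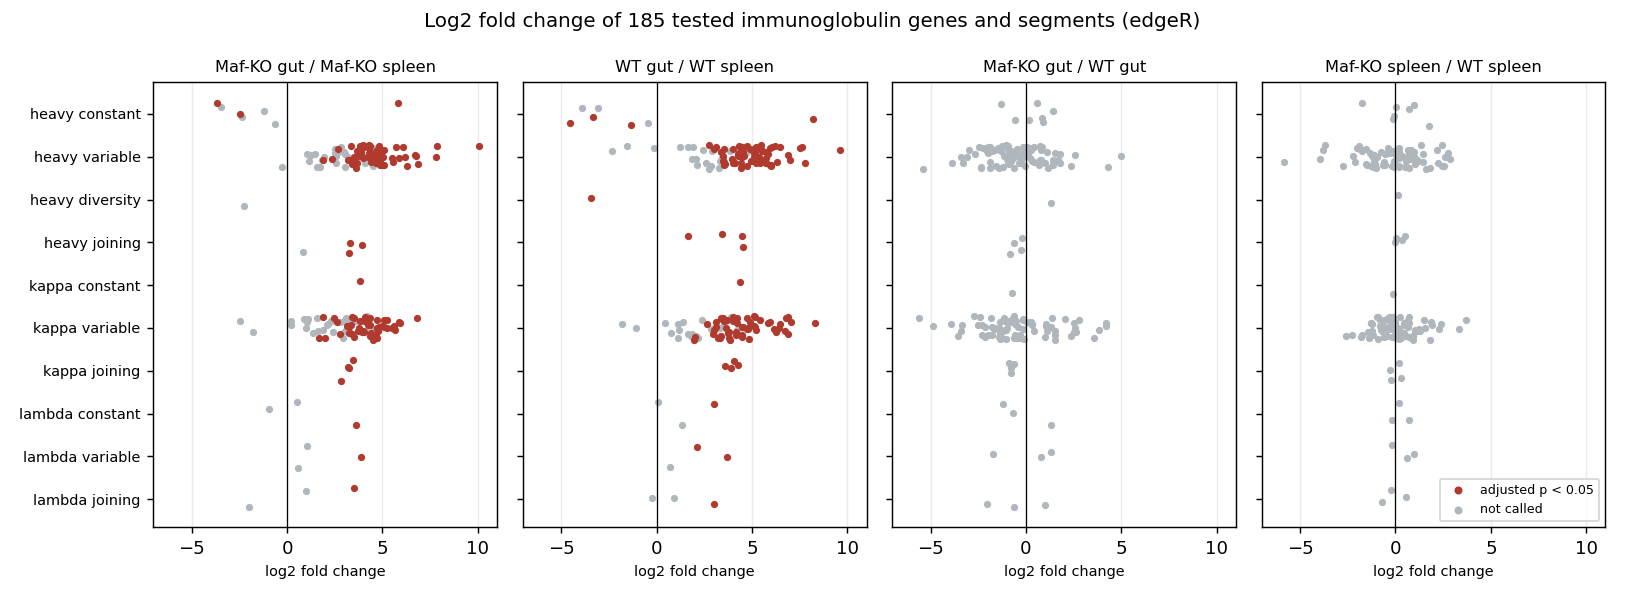
Log2 fold change of the 185 tested members by class in 4 comparisons, each point 1 gene or segment, red where adjusted p was under 0.05 (edgeR). Most variable segments lie right of 0 in both gut-over-spleen panels, and no member is red in either panel of Maf-KO over WT.

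The most abundant heavy variable segment in gut was Ighv1-81 (chr12:115920279-115920572, minus strand). It had 840.3 and 172 CPM in Maf-KO gut and 11.8, 10.5 and 4.29 CPM in Maf-KO spleen, and 938 and 229.5 CPM in WT gut against 9.24, 3.70 and 1.61 CPM in WT spleen. The folds were 5.84 (SE 0.87, adjusted p = 0.000955) in Maf-KO and 6.91 (SE 0.92, adjusted p = 0.00049) in WT. Ighv3-6 had 228 and 51.1 CPM in Maf-KO gut and 205 and 278 CPM in WT gut, against 1.56 to 6.61 CPM in the 6 spleen libraries. Its folds were 4.99 (SE 0.62, adjusted p = 0.000339) in Maf-KO and 5.82 (SE 0.62, adjusted p = 0.00013) in WT. Also among the 10 lowest adjusted p-values were Ighv1-26 and Ighv1-85 in Maf-KO (4.28 and 6.77) and Ighv3-1, Ighv1-39 and Ighv1-52 in WT (7.79, 6.01 and 4.47). In Maf-KO the Ighv3-1 fold of 2.82 (SE 1.05, adjusted p = 0.0703) was not called, and the groups overlapped. It passed without the filter on low counts (adjusted p = 0.0173) and without WT spleen replicate 3 (adjusted p = 0.0346).

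Among the kappa segments, Igkv6-23 (chr6:70260409-70260933, minus strand) had 194 and 39.1 CPM in Maf-KO gut and 5.53, 8.37 and 4.48 CPM in Maf-KO spleen. In WT it had 1190.3 and 377 CPM in gut and 12.1, 2.16 and 5.60 CPM in spleen. All gut values exceeded all spleen values, and the folds were 4.26 (SE 0.79, adjusted p = 0.00327) in Maf-KO and 6.90 (SE 0.84, adjusted p = 0.000291) in WT. Igkv1-110 had 667 and 50.8 CPM in Maf-KO gut and 966 and 188 CPM in WT gut, where its closest relative Igkv1-117 had 372 and 144 CPM in Maf-KO and 420.0 and 229 CPM in WT. The Igkv1-117 folds were 4.73 (SE 0.60) in Maf-KO and 4.82 (SE 0.59) in WT. The Igkv1-110 folds were 4.69 (SE 0.98, adjusted p = 0.00583) in Maf-KO and 5.82 (SE 1.02, adjusted p = 0.00236) in WT, and without Maf-KO gut replicate 2 the first was 1.87 with adjusted p = 0.117. Igkv10-96, Igkv1-122, Igkv12-38, Igkv3-2 and Igkv4-50 were called in both genotypes. Their folds were 3.53, 4.70, 5.61, 4.99 and 1.97 in Maf-KO, and 5.43, 4.48, 4.17, 2.99 and 6.49 in WT. Igkv3-4, among the 3 highest kappa segments over the spleen libraries, was called in neither genotype. Its folds were 1.55 (SE 0.73, adjusted p = 0.142) in Maf-KO and 0.45 (SE 0.71, adjusted p = 0.68) in WT.

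Iglv1, the main lambda variable segment (chr16:19085017-19085460, minus strand), moved with Iglc1. It had 711 and 93.5 CPM in Maf-KO gut and 35.2, 24.4 and 23.2 CPM in Maf-KO spleen, and 324 and 143 CPM in WT gut against 21.1, 16.2 and 17.5 CPM in WT spleen, for folds of 3.86 (SE 0.67, adjusted p = 0.00217) in Maf-KO and 3.67 (SE 0.67, adjusted p = 0.00294) in WT. Iglv2 was not called in either genotype (1.04 in Maf-KO, adjusted p = 0.308, and 0.69 in WT, adjusted p = 0.533). Iglv3 had a fold of 0.56 (adjusted p = 0.538) in Maf-KO and of 2.12 (SE 0.59, adjusted p = 0.0223) in WT, the last not called without WT gut replicate 1 or WT spleen replicate 2 (adjusted p 0.189 and 0.0749).

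Many variable segments share stretches of sequence with other segments, to very different degrees, which bears on how reads can be assigned to them. The 3' ends of 6 variable segments are shown, from the codons before the conserved cysteine codon (capitals) to the end of the germline segment. The kappa pair and the lambda pair are shown because the differences within each pair are few, and the heavy ones because they led gut libraries.
Ighv1-81: tatttcTGTgcaaga
Ighv3-6: tattacTGTgcaagaga
Igkv6-23: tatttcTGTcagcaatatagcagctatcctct
Igkv6-15: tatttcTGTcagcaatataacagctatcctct
Iglv1: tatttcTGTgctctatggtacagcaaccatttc
Iglv2: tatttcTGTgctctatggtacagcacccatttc
Among 120 heavy segments, 100 held at least 1 word of 50 bases that also occurs in another segment, with a median of 21.4% of a segment's words shared. For kappa this was 79 of 102, with a median of 25.2%. Ighv1-81 shared 11.6% of its words, Ighv3-6 2.91%, Igkv6-23 35.6% and Iglv1 22.2%. Igkv1-110 shared 50.9%, nearly all of it with Igkv1-117, so the split of counts between these 2 is uncertain, as is that of Ighv1-52, which shared 70.3%.

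How counts spread over segments also differed between tissues (plot of variable shares). Ighv1-81 led the heavy variable counts with 21.4% (95% exact binomial interval 21.1% to 21.8%) and 14.3% (13.7% to 14.9%) in the 2 Maf-KO gut libraries and with 17.7% (17.4% to 18.1%) in WT gut replicate 1. Ighv3-6 led WT gut replicate 3 with 12.2% (11.8% to 12.7%). In spleen the leading segment held 5.90% to 9.22% in Maf-KO (Ighv1-81 in replicates 1 and 2, Ighv6-3 in replicate 3) and 7.21% to 10.4% in WT (Ighv1-9 in replicates 1 and 3, level with Ighv1-81 in replicate 1, and Ighv8-5 in replicate 2). For kappa, Igkv1-110 with 14.5% (14.2% to 14.8%) and Igkv1-117 with 9.28% (8.88% to 9.70%) led the 2 Maf-KO gut libraries, whereas Igkv6-23 led both WT gut libraries with 16.9% (16.6% to 17.2%) and 11.7% (11.3% to 12.1%). In spleen the leading kappa segments were Igkv6-15, Igkv1-110 and Igkv1-135 in Maf-KO and Igkv6-15, Igkv1-110 and Igkv5-39 in WT, at 6.62% to 11.3% in Maf-KO and 6.79% to 8.48% in WT. All these intervals cover counting error only.

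The effective number of segments, the inverse of the summed squared shares, was 14.98 and 23.5 for heavy segments in Maf-KO gut and 18.4 and 19.4 in WT gut. It was 27.5, 38.0 and 26.8 in Maf-KO spleen and 31.5, 27.9 and 31.1 in WT spleen, higher in every spleen library than in every gut library. At a common depth of 907 heavy variable counts, 67.6 to 70.9 segments were expected with a count in gut libraries and 74.0 to 84.2 in spleen libraries. For kappa the effective number was 19.4 and 27.5 in Maf-KO gut and 14.8 and 18.6 in WT gut, against 24.8 to 35.8 in Maf-KO spleen and 24.9 to 29.8 in WT spleen, which overlaps for Maf-KO. At 1290 kappa variable counts, 65.9 to 70.0 segments were expected with a count in gut libraries and 75.8 to 83.3 in spleen libraries. As the shared part of 2 libraries' heavy segment shares, pairs within a gut group had 57.3% and 62.8% in common, gut pairs across genotypes 58.4% to 64.1%, and pairs of a gut and a spleen library 41.6% to 65.9%, a range that holds the others. For kappa, pairs within a gut group had 60.5% and 66.1% in common, gut pairs across genotypes 52.7% to 64.0%, and pairs of a gut and a spleen library 46.5% to 65.2%, which overlap as well.

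**Figure D4:**
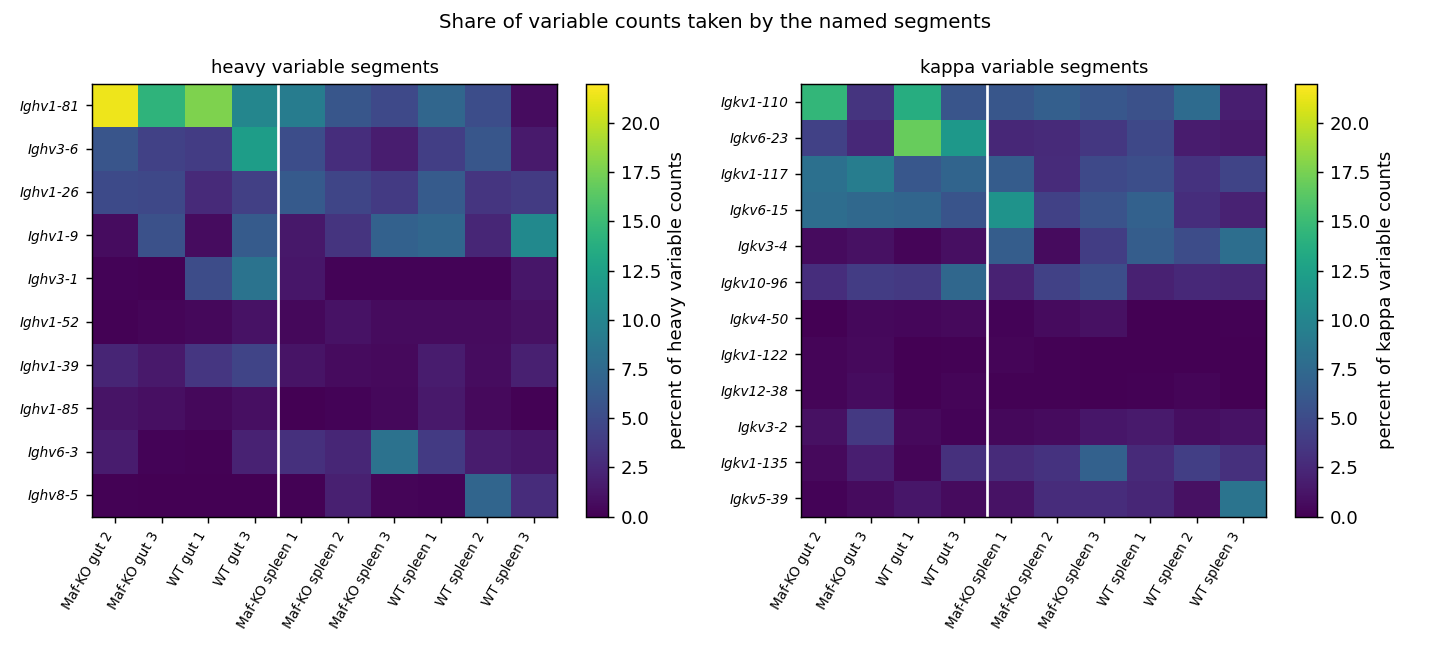
Share of heavy (left) and kappa (right) variable counts taken by the named segments in each library, as colour from 0 to above 20%, with gut left of the white line. Ighv1-81 is brightest in Maf-KO gut replicate 2, and Igkv6-23 is brighter in both WT gut libraries than in any other library.

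Between genotypes no member was called. In gut, edgeR called 0 of 185 members in Maf-KO against WT, where 0.151% of all genes were called. At an unadjusted p under 0.05 there were 34, where 8.14% of all genes passed. DESeq2 called 6 members, 2 higher and 4 lower in Maf-KO. Limma-voom called 3 and limma-voom with the title-number block 5, all of these lower. With Maf-KO replicate 2, WT replicate 3 or WT spleen replicate 3 left out, edgeR called 1. The median fold over the members was -0.59, with 64 of 185 positive. Groups did not overlap for 18 members higher and 35 lower in Maf-KO, where 17.4% and 18.7% of all genes did so. Igha had a fold of -0.59 (SE 0.51, adjusted p = 0.824), and with 1 replicate left out it ranged down to -1.63 and up to 0.05, so its direction in gut was not settled. Igkc had a fold of -0.71 (SE 0.65, adjusted p = 0.835) and Ighm one of 0.60 (SE 0.28, adjusted p = 0.629).

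Ighv3-1 came closest to a call in gut. It had 9.65 and 1.52 CPM in Maf-KO gut and 269 and 191 CPM in WT gut, beside 0.195 to 1.73 CPM in Maf-KO spleen and 0.154 to 2.85 CPM in WT spleen. WT gut was above all other libraries. The fold of Maf-KO over WT in gut was -5.38 (SE 0.87, adjusted p = 0.0663), and with the title-number block it was -5.67 with adjusted p = 0.00674. Without WT spleen replicate 3 it was -5.38 with adjusted p = 0.0248. Igkv14-111 had 5.39 and 15.1 CPM in Maf-KO gut and 66.4 and 151 CPM in WT gut, with a fold of -3.40 (SE 0.61, adjusted p = 0.0962) that the block put at -3.54 with adjusted p = 0.0384. Ighv1-52 had 3.65 and 3.99 CPM in Maf-KO gut and 25.5 and 23.4 CPM in WT gut, with a fold of -2.67 (SE 0.58, adjusted p = 0.181), and the block gave -2.63 with adjusted p = 0.0177. Ighv3-1, Igkv14-111 and Ighv1-52 each also passed with DESeq2, with limma-voom and without the filter on low counts. Under 14, 15 and 14 of the 19 alternatives, in that order, they stayed uncalled. The other 2 members called with the block, both lower in Maf-KO, were Ighv5-17 and Igkv14-130. Some segments went the other way, with no overlap between groups and no call by edgeR. Among them were Igkv2-112 (4.18, adjusted p = 0.231), Igkv14-100 (4.19, adjusted p = 0.283) and Igkv8-19 (3.81, adjusted p = 0.294). Igkv14-111, Ighv5-17, Igkv14-130, Igkv2-112, Igkv14-100 and Igkv8-19 were chosen for mention after their values were seen. Each of these folds rests on 2 against 2 libraries.

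In spleen, edgeR called 0 of 185 members in Maf-KO against WT, where 0.0151% of all genes were called, and so did DESeq2 and limma-voom. At an unadjusted p under 0.05 there were 5, where 2.85% of all genes passed. Groups did not overlap for 7 members higher and 5 lower in Maf-KO, where 3.59% and 3.90% of all genes did so. Igha was among the higher ones, with 119, 110.0 and 94.4 CPM in Maf-KO spleen and 43.9, 20.6 and 31.5 CPM in WT spleen. Its fold was 1.75 (SE 0.44, unadjusted p = 0.00246, adjusted p = 0.999). Over the 19 alternative settings that fold ranged from 1.51 to 2.05, and its adjusted p was at least 0.101. Ighm had -0.11 (SE 0.23) and Igkc -0.14 (SE 0.53), with overlapping groups. Ighg2b had 0.98 (SE 0.61), and 2.43 with adjusted p = 0.0457 without WT spleen replicate 3.

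The difference of the genotype effects between gut and spleen was called for 0 of 185 members by edgeR, where 0% of all genes were called, and for 19 members at an unadjusted p under 0.05, where 3.19% of all genes passed. DESeq2 called 1 member (Igkv4-50) and limma-voom 0. For Igha that difference was -2.34 (SE 0.67, unadjusted p = 0.00576, adjusted p = 0.9999).

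Genes of antibody-making cells, from lists of other genes, were set beside these values (plot of marker genes). Over all genes tested, 14.4% were called higher in gut in Maf-KO and 14.7% in WT. Of 15 plasma cell genes, 10 rose and 0 fell in Maf-KO gut against Maf-KO spleen, and 11 rose and 0 fell in WT, with median log2 folds of 1.62 and 2.01. Their summed level was 2093 to 4571 CPM in Maf-KO gut and 3193 to 7750 CPM in WT gut, against 560 to 742 CPM in Maf-KO spleen and 519 to 715 CPM in WT spleen. The Maf-KO count was 5 without Maf-KO gut replicate 2 or with only the groups compared and 6 without Maf-KO spleen replicate 3, and the WT count was 5 without WT gut replicate 1 and 7 without WT spleen replicate 2. Jchain, which links IgA and IgM into polymers, had 3337 and 1111 CPM in Maf-KO gut and 107, 104 and 71.8 CPM in Maf-KO spleen, and 6317 and 2007 CPM in WT gut against 80.1, 44.0 and 112 CPM in WT spleen. Its folds were 4.56 (SE 0.59, adjusted p = 0.000435) in Maf-KO and 5.73 (SE 0.62, adjusted p = 0.000142) in WT. Sdc1, the plasma cell surface marker syndecan-1, had folds of 3.44 (adjusted p = 0.000474) in Maf-KO and 4.30 (adjusted p = 0.000165) in WT. Prdm1 (1.91 in Maf-KO, 2.32 in WT) and Irf4 (1.62 in Maf-KO, 2.01 in WT) rose too, but are also transcription factors of effector Tregs. The order of the gut libraries by Jchain was that by Igha, with WT replicate 1 highest and Maf-KO replicate 3 lowest. Jchain counts per 100 Igha counts were 35.8 and 37.1 in Maf-KO gut and 50.4 and 33.5 in WT gut, and 76.1 to 94.4 in Maf-KO spleen and 182 to 356 in WT spleen.

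**Figure D5:**
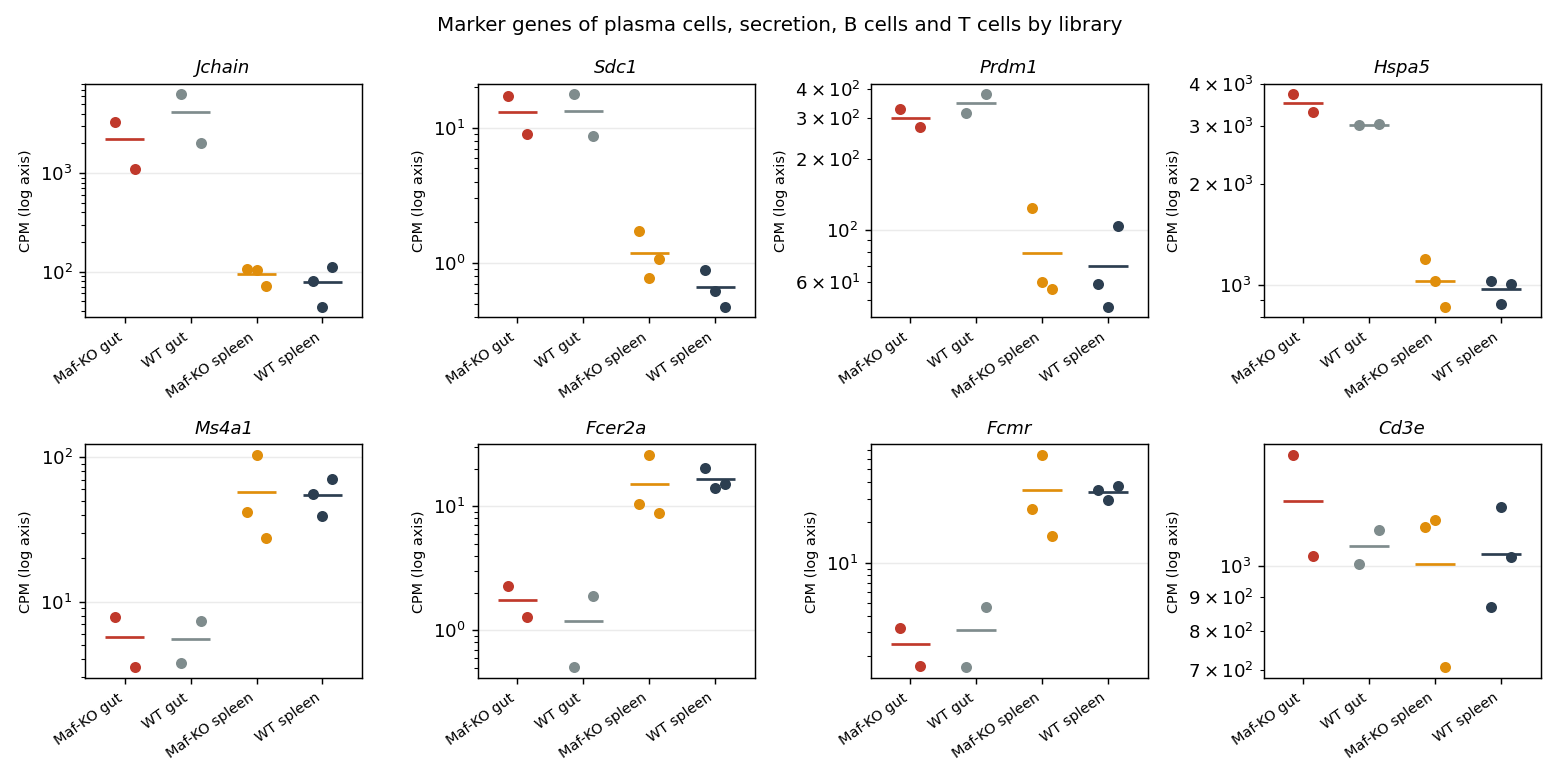
CPM on log axes of 8 marker genes, with 1 point per library and a line at the group mean. The plasma cell genes Jchain and Sdc1 and the chaperone Hspa5 lie higher in gut, the B cell genes Ms4a1 and Fcer2a and the IgM receptor gene Fcmr lie lower in gut, and the T cell gene Cd3e overlaps between tissues.

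Most B cell genes fell in gut. Over all genes tested, 14.1% were called lower in gut in Maf-KO and 13.3% in WT. Of 15 B cell genes, 0 rose and 10 fell in gut in each genotype, with median folds of -2.47 in Maf-KO and -2.94 in WT. Without Maf-KO gut replicate 3, 5 were called in Maf-KO, and without WT gut replicate 1, 6 in WT. The summed B cell level, to which Cd74 of antigen-presenting cells belongs, was 556 to 1146 CPM in Maf-KO gut, 567 to 907 CPM in WT gut, 569 to 1806 CPM in Maf-KO spleen and 890 to 1390 CPM in WT spleen. Ms4a1, which encodes the B cell surface protein CD20, had 7.83 and 3.51 CPM in Maf-KO gut and 41.5, 103.5 and 27.6 CPM in Maf-KO spleen, and 3.77 and 7.33 CPM in WT gut against 55.5, 39.3 and 70.6 CPM in WT spleen. Gut and spleen did not overlap, and the folds were -3.35 (SE 0.62, adjusted p = 0.00324) in Maf-KO and -3.30 (SE 0.64, adjusted p = 0.00398) in WT. Fcer2a (CD23) had folds of -3.08 in Maf-KO (adjusted p = 0.00383) and -3.76 in WT (adjusted p = 0.00213). No marker of either list was at 0 in all libraries. The part of B cells or plasma cells in the immunoglobulin values was not tested.

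In gut, 14.4% of all genes tested were called higher in Maf-KO and 14.7% in WT. Of 19 genes of the secretory machinery, which plasma cells use heavily, 12 rose in Maf-KO and 14 in WT, and 0 fell. The Maf-KO count was 7 without Maf-KO gut replicate 2, and the WT count was 9 without WT gut replicate 1 or without scaling. Hspa5, the chaperone BiP that holds unpaired heavy chains, rose by 1.78 in Maf-KO (adjusted p = 3.04e-05) and by 1.64 in WT (adjusted p = 4.72e-05). Its 4 gut libraries held 3001 to 3722 CPM, a narrow range beside that of Igha. Dnajb9 rose by 2.50 in Maf-KO and by 2.10 in WT. Of 11 tested immunoglobulin receptor genes, 0 rose and 3 fell in Maf-KO and 0 rose and 4 fell in WT, where 14.1% of all genes tested were called lower in Maf-KO and 13.3% in WT. The median log2 fold over these 11 genes was nevertheless above 0, at 0.24 in Maf-KO and 0.28 in WT. Among those that fell were the IgM receptor gene Fcmr (-3.84 in Maf-KO, -3.43 in WT) and the intracellular antibody receptor gene Trim21 (-1.44 in Maf-KO, -1.30 in WT). Without WT gut replicate 1 the WT count was 2. Of 9 tested genes of class switching and rearrangement, 0 rose in gut, 2 fell in Maf-KO and 3 in WT, beside the same 14.1% and 13.3% of all genes, and without scaling 5 were called in each genotype, as were 5 in Maf-KO with the title-number block. Rag1 and Rag2, which cut the segments together, were at 0 in all Maf-KO libraries and in WT gut and at 0.178 CPM or less in WT spleen. Vpreb2 of the surrogate light chain was at 0 in all 10 libraries.

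Markers of other cells were counted as well, where 14.4% of all genes were called higher in gut and 14.1% lower in Maf-KO, and 14.7% higher and 13.3% lower in WT. Of 12 T cell and Treg genes, 5 rose and 0 fell in Maf-KO, and 4 rose and 1 fell in WT. Their summed level was 13070 to 13713 CPM in Maf-KO gut, 12090 to 13560 CPM in WT gut, 6940 to 7688 CPM in Maf-KO spleen and 6989 to 7595 CPM in WT spleen. With the title-number block 9 were called in Maf-KO and 8 in WT, and with 1 library left out as few as 3 in each. Of 8 myeloid genes, 1 rose and 2 fell in Maf-KO, and 0 rose and 2 fell in WT, and with 1 library left out as few as 0 were called in each. Of 6 tested gut epithelium genes, 3 rose in each genotype, 5 were called in Maf-KO with the title-number block, and 5 in WT without WT gut replicate 3. Of 5 tested pancreatic acinar genes, 0 were called in Maf-KO and 5 rose in WT, with as few as 1 called without WT gut replicate 1. The lipase gene Pnlip had 0 CPM in both Maf-KO gut libraries and 27.0 and 7.57 CPM in WT gut replicates 1 and 3. WT gut replicate 1 was thus highest for Igha, Igkc and Pnlip. Maf-KO gut replicate 2, next highest for Igha and Igkc, had 0 CPM of Pnlip. The part of other cells in these libraries was not tested. Between genotypes edgeR called 0 of the 100 tested genes of all 9 lists in gut, in spleen or in the interaction (7, 3 and 5 at an unadjusted p under 0.05). DESeq2 called 2 in gut, 0 in spleen and 1 in the interaction, all of them pancreatic, and limma-voom 0 in each.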

How the data were processed

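Per the labels, RNA was prepared with RNeasy Plus Mini and libraries with TruSeq RNA kits. The authors deposited raw read counts per Entrez gene, not normalised. The submitters' processing notes name Subread, featureCounts, limma, GRCm38 and mm10. For versions, the strand setting and the treatment of reads that match several genes, the sources used here state nothing, so levels of near-identical variable segments and of overlapping transcripts are uncertain. The deposited log2 values list no immunoglobulin gene and were not used here.

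The count model came from edgeR 4.0.16 under R 4.3.3. A gene had to pass filterByExpr over the 4 groups (minimum count 10, minimum total 15), and TMM factors were 0.887 to 1.12. All of the 4 gut factors were at most 0.912 and all of the 6 spleen factors at least 1.06. One quasi-likelihood fit over the 10 libraries had a coefficient for each group (common dispersion 0.0431), and two-sided p-values were adjusted over all 13214 genes tested. The code was tested on simulated data. The SE is the log2 fold change divided by the square root of F. Sums, shares and ratios over members have no test. Python 3.11.15 with pandas 2.3.3 and SciPy 1.17.1 gave these and the exact binomial intervals (95%). Coordinates came from a RefSeq table of GRCm38.p6 by Entrez ID (260 of 260), and exon lengths and sequences from GENCODE M21.

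Libraries of gut and spleen that share a number in their titles deviated together (correlation 0.255 to 0.382 in 4 pairs), while libraries that share only a replicate number did not (-0.347 to 0.0282 in 8 pairs). Pairs that share neither number ranged from -0.382 to 0.26, so the highest of these reached the same size. The libraries of a gut group deviate from their mean by equal and opposite amounts, so these correlations are not independent. The title number served as a random block in limma-voom (limma 3.58.1), with a consensus correlation of 0.509. The other alternatives were DESeq2 size factors, library totals without scaling, totals without the immunoglobulin rows, no filter, DESeq2 1.42.0, limma-voom, the replicate number as a fixed block, only the groups compared, and leaving out each library. The members and the 9 marker lists were chosen with earlier results of these data known. All constant genes, the 3 highest variable segments per class and tissue, the leading segment per library and up to 10 called members per tissue comparison by adjusted p were named. Some genes of the marker lists are not reported here by name.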

Additional observations from a re-analysis of the deposited data

How the results depend on the processing

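The calls of Igha and Igkc between gut and spleen kept their direction and their side of the threshold under all 19 alternatives in both genotypes, Igha at 4.80 to 6.44 in Maf-KO and 7.55 to 8.62 in WT, and Igkc at 2.76 to 4.42 in Maf-KO and 3.76 to 4.82 in WT. The number of members called in gut between Maf-KO and WT was 11 without the filter, 5 of them higher and 6 lower in Maf-KO. It was 6 with DESeq2, 3 with limma-voom, 5 with the title number as a replicate block and 1 with only the groups compared. With 1 library left out it was 0 to 1. In spleen it was 0 to 1 with 1 library left out. Gut against spleen gave 66 to 131 members in Maf-KO and 81 to 148 in WT with 1 library left out, and 70 in Maf-KO with limma-voom. With the title-number block it gave 105 in Maf-KO and 127 in WT. The interaction gave 1 with DESeq2 and 0 to 0 with 1 library left out. Summed diversity counts in Maf-KO gut came to 1.004 CPM without scaling and 1.14 CPM without the immunoglobulin rows in the totals, against 1.12 CPM, and lambda variable counts in WT spleen to 29.8 CPM without scaling, against 27.5 CPM. Leaving out scaling moved the median log2 fold of all genes by -0.26 in Maf-KO and by -0.27 in WT for gut over spleen.

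Among the named genes, directions turned only for folds that had not passed the test. Iglc3 in WT gut over spleen was -0.19 without scaling, -0.27 with limma-voom, -0.058 and -0.45 with the replicate number and the title number as a block, and -1.44 to 0.80 with 1 library left out (-1.44 without WT gut replicate 1, -0.15 without WT spleen replicate 2). Ighg2b in WT was 0.21 with limma-voom and -0.84 to 1.03 with 1 library left out, the highest without WT spleen replicate 3. Iglv2 in WT was -1.25 to 1.49, the lowest without WT gut replicate 1, and Iglv3 in Maf-KO -0.79 to 1.26, the lowest without Maf-KO gut replicate 2. For Maf-KO over WT in gut, leaving out 1 library gave -1.63 to 0.046 for Igha (above 0 without Maf-KO replicate 3 or WT replicate 1) and -0.96 to 2.17 for Iglc1 (below 0 without Maf-KO replicate 2). In spleen it gave -0.29 to 0.082 for Ighm and -0.55 to 0.27 for Igkc, both above 0 without Maf-KO replicate 3 or WT replicate 3. The cause of these changes was not tested. Depth limits Ighe and the diversity segments other than Ighd4-1, at 0 to 4 counts per library, and 2 libraries per gut group limit the genotype comparison there. Values under 3 counts also occur for Ighd4-1 and Ighg3 in WT gut and for Ighv3-1 in spleen, which limits how exactly their folds are known. The WT fold of Ighd4-1 for gut over spleen ranged from -8.41 to -2.48 over the alternatives.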
